A study of Homo sapiens with 52 samples.

Results

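The tumour necrosis factor (TNF) superfamilies were followed through the senescence of WI-38 cells, a line of normal human embryonic lung fibroblasts. Members were all genes whose symbol is TNF, or is TNFSF or TNFRSF with a number and at most 1 closing letter. This rule took 33 of the 59408 genes in the tables, of which 12 were ligands and 21 were receptors. A mean normalized count of 10 or more in at least 1 table was reached by 22 members. The tests were run on 15479 genes with a mean level of at least 10 over all groups, and 19 members, 7 ligands and 12 receptors, were among them. Relatives with other symbols, such as FAS and CD40, fall outside the rule and are described at the end as a fixed list.

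The series held 52 RNA-seq libraries in 26 groups of 2. The untreated group was young cells at a population doubling level (PDL) of 32 to 46, and the replicative senescence (RS) group was the same line passaged to a PDL of about 52, with no agent. Young cells received 0.009% sodium dodecyl sulfate (SDS), a detergent that wounds the plasma membrane, 75 mM KCl, which drives calcium influx, or 250 nM doxorubicin (DXR), a drug that damages DNA. Each agent was kept on for 24 h and washed out, and cells were collected at the end of exposure (day 0), on each of days 1 to 4, and on days 6, 8 and 16. The 3 series are called PMD-Sen (SDS), Ca2+-Sen (KCl) and DDR-Sen (DXR) here. Every group was 1 cell line in monoculture, and the study's methods call its 2 libraries independent samples without saying what separated them, so the p-values cover the spread between these libraries, which may be technical.

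TNF ligands are mostly membrane-anchored trimers that can be shed, and they signal by clustering receptors on a neighbouring cell. Receptors with a death domain, such as TNFRSF1A and TNFRSF10B, can start caspase activation, whereas most others recruit TRAF adaptors and feed into NF-kB and MAP kinase signalling. Decoy receptors bind a ligand without passing on the death signal. In the lung, fibroblasts respond to several of these ligands, while many members are known mainly from lymphocytes and antigen-presenting cells.

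Promoter sequences are shown for the 3 tested ligands with the widest ratio of highest to lowest level and for TNFRSF1B, the receptor that was lower in every DDR-Sen table. Each is the 250 bases before the RefSeq start (GRCh38.p14), written 5′ to 3′ on the strand of the gene, with capitals marking the motif letters found. TNFSF18 was read from the minus strand at chr1:173050942-173051191, TNFSF15 from the minus strand at chr9:114792531-114792780, TNFSF9 from the plus strand at chr19:6530776-6531025 and TNFRSF1B from the plus strand at chr1:12166741-12166990. The TNFSF15 window lies inside an intron of the longest annotated transcript of that gene, whose 5′ end is at 114806126, and the windows of TNFSF18 and TNFSF9 run a short stretch into their longest transcript.
TNFSF18: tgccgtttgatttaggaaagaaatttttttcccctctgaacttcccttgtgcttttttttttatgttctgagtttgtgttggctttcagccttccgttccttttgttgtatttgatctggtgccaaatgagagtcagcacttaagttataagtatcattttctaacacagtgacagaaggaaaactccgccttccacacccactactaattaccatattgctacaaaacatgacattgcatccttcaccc
TNFSF15: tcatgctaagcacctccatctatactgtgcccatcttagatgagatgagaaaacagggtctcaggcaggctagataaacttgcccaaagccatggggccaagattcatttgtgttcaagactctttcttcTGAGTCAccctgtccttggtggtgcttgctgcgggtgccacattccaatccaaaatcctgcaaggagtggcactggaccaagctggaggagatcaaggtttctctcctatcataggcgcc
TNFSF9: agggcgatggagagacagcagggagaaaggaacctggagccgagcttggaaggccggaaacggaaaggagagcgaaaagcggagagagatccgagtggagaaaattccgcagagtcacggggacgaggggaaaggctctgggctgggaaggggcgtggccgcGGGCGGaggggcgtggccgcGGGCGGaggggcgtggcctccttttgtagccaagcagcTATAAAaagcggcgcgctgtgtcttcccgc
TNFRSF1B: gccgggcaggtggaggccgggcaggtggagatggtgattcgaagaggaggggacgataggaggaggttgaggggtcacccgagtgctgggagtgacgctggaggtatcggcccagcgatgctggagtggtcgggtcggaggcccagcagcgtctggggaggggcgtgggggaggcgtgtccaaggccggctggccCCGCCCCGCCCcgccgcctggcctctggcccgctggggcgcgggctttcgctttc

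Both strands of each window were searched for an AP-1 motif (TGANTCA), an NF-kB motif, a cyclic AMP response element (TGACGTCA), a TATA box (TATAAA) and a GC box (GGGCGG). The TNFSF15 window held the AP-1 letters 120 to 114 bases before the start. In the TNFSF9 window the TATA letters lay 30 to 25 bases before the start, with GC boxes at 88 to 83 and 68 to 63. The TNFRSF1B window held overlapping GC boxes on the reverse strand, at 55 to 50 and 50 to 45, and the TNFSF18 window held none of the 5 motifs. Of the 22 members with a promoter in the RefSeq table, AP-1 letters were found in 3, against 6.60% of all 27305 promoters, NF-kB letters in 1 (1.73%), response element letters in 0 (1.77%), TATA letters in 4 (11.1%) and GC boxes in 13 (42.3%). A match is a description of the letters and not a measured binding site.

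The deposited tables compare each treated or RS group with the same untreated libraries, and hold a mean and a fold change but no value of a single library. The labels give the untreated group no day, and no untreated cells matched to the later days are among the groups. Effects of an inducer on late days therefore cannot be told apart from those of time in culture. Levels below are therefore normalized counts as the mean of 2 libraries, with the spread carried by the deposited standard error (SE) of each log2 fold change. All 25 comparisons share the untreated libraries. An unusual value in them would shift a gene the same way in every comparison, so counts of comparisons below are not independent. Library depths were not given and were inferred from the steps of low values. The untreated libraries came out at 15.4 and 18.8 M counted reads, against 19.1 to 58.0 M (median 29.5 M) in the other libraries. Fibroblast markers summed to 993016 in untreated cells, with a range of 475007 to 1183760 over the groups, while leukocyte markers summed to 29.5 (17.8 to 259), endothelial markers to 46.4 (32.4 to 219.6) and epithelial markers to 16.6 (2.70 to 27.3). None of these marker genes was at 0 in untreated cells, and 4 of 6 leukocyte, 1 of 3 endothelial and 1 of 3 epithelial markers stayed under 10 in all groups. The highest leukocyte sum, most of it CD14, was that of day 8 of Ca2+-Sen and the highest endothelial sum that of day 0 of Ca2+-Sen, and the part of such markers in the results of those days was not tested. Day 8 of Ca2+-Sen also stood apart by its share of called genes, so counts over days are given with and without it. In bulk RNA, fewer cells that express a gene and less of its RNA per cell cannot be told apart.

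TNF itself was listed at 0 in all 25 tables. It lies on chromosome 6 (GRCh38, 31575567 to 31578336, plus strand), and of the 40 other coding genes within 250 kb only 3 (HLA-B, MICA and PRRC2A) were tested, against 64.1% of 19462 coding genes in the genome. Genes there that nearly every cell uses were also close to 0, with highest levels of 6.52 for BAG6, 5.37 for CSNK2B and 7.35 for CLIC1. The listed 0 of TNF is therefore not read as a level. TNFRSF6B, a soluble decoy for FAS ligand, was also listed at 0 throughout, but its locus is overlapped by the readthrough gene RTEL1-TNFRSF6B, at 77.4 in untreated cells (range 56.4 to 114.2).

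Another 9 members were above 0 with a mean under 10 in every table, and none of their group levels passed 19.5. TNFSF10 (TRAIL), the ligand of the receptors described below, was one of these, at 4.5 in untreated cells and at most 16.5, on day 0 of Ca2+-Sen. The receptors of the neighbouring ligands TNFSF18 and TNFSF4 were low as well, with highest group levels of 7.53 for TNFRSF18, the TNFSF18 receptor, and 6.77 for TNFRSF4, the TNFSF4 receptor. TNFRSF8, TNFRSF9 and TNFRSF13C were measured but not tested. TNFRSF9, the receptor of TNFSF9, reached 45.0 on day 0 of Ca2+-Sen against 1.56 in untreated cells, and TNFSF8, the CD30 ligand, 19.5 against 0.175. These were the only 2 of the untested members that were called in any table when no filter on low levels was used, and they were singled out after their values were seen.

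Without a stated strand setting for the counting, reads shared by overlapping genes cannot be told apart. Among tested members this touches TNFRSF10A (TNFRSF10A-AS1 and others), TNFRSF14 (TNFRSF14-AS1), TNFRSF10B (RHOBTB2 and another), TNFRSF12A (CLDN6) and TNFRSF25 (ESPN, PLEKHG5). It also touches TNFSF18 (AL031599.1), TNFRSF10C (AC107959.4, AC107959.5), TNFSF13B (AL157762.1, RNA5SP39), TNFRSF1B (MIR4632, MIR7846), and TNFSF12 and TNFSF13 (TNFSF12-TNFSF13). In untreated cells the decoy TNFRSF11B (osteoprotegerin) had the highest level per kb of exon, 7135 normalized counts per kb. It was followed on this scale by TNFRSF12A at 3271, TNFRSF1A at 1703, TNFRSF10D at 1454, TNFRSF10B at 1238 and TNFRSF21 at 682. The most abundant ligands, TNFSF4 and TNFSF12, both stood at 297 per kb, and every other ligand was at or under 22.0 per kb. Receptors thus made up most of the measured expression of the family, and the tested ligands other than TNFSF4 and TNFSF12 were low at baseline.

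**Figure D1:**
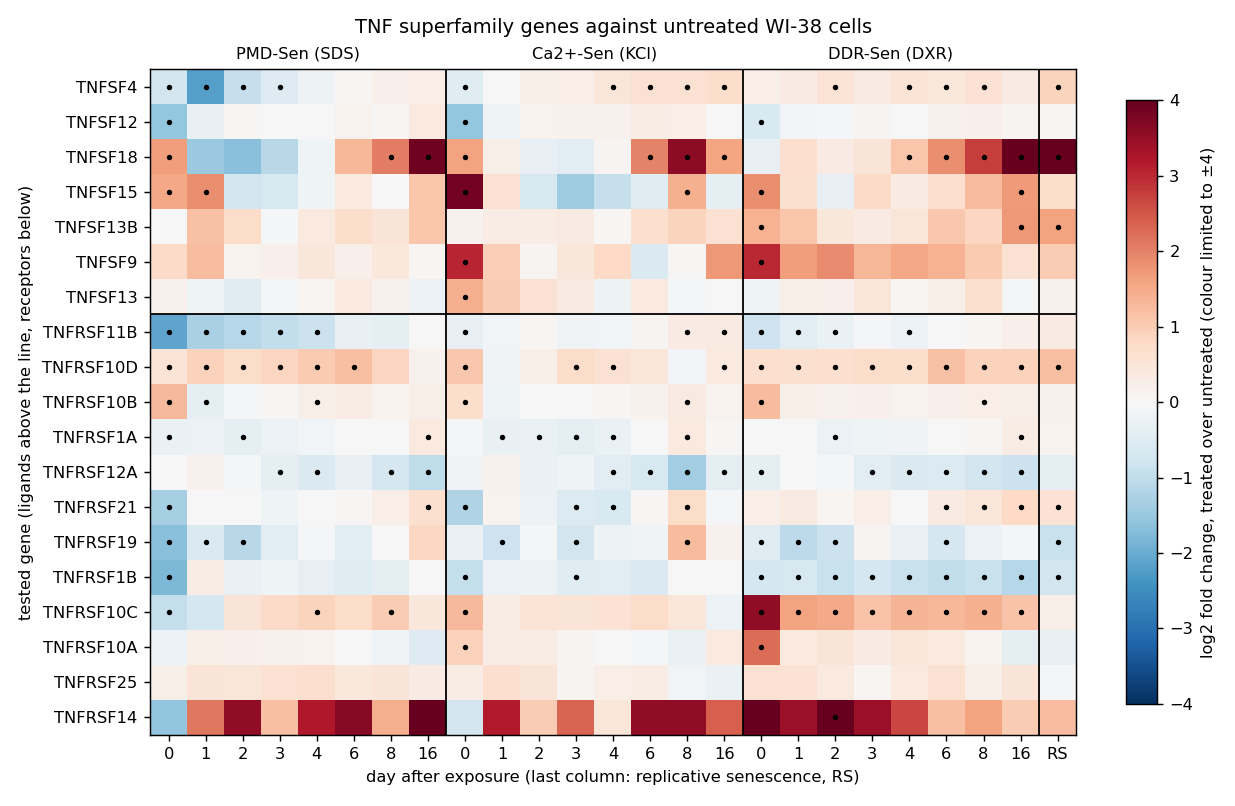
Log2 fold change against untreated cells (colour) of the 19 tested members (rows) in the 25 comparisons (columns, by inducer and day, with RS last). Dots mark calls at a BH-adjusted Wald p under 0.05, colour stops at 4 in size, and dots on red are densest for TNFRSF10D, TNFSF18 and TNFRSF10C, while TNFRSF14, with its high standard errors, has 1 dot.

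A member was called in a comparison when the deposited Wald p, adjusted again by Benjamini-Hochberg (BH) over the 15479 tested genes, was under 0.05. In PMD-Sen, 12, 6, 5, 4, 5, 1, 3 and 4 of the 19 tested members were called on the 8 days in turn, while 38.3%, 18.8%, 15.1%, 10.9%, 14.9%, 12.1%, 11.2% and 20.3% of all tested genes were called. In Ca2+-Sen the counts were 13, 2, 1, 5, 5, 3, 9 and 5, against 48.5%, 11.9%, 4.12%, 9.95%, 11.5%, 9.68%, 31.9% and 11.3% of all genes. In DDR-Sen they were 12, 5, 8, 4, 7, 8, 8 and 9, against 26.7%, 18.6%, 12.1%, 11.0%, 17.6%, 23.4%, 21.0% and 28.7%, and in RS 7 members were called against 22.3%.

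Day 0 had the most calls in each series, and day 8 of Ca2+-Sen, with 31.9% of all genes called, stood between days with 9.68% and 11.3%. Over any day, 13 members were called in PMD-Sen (55.1% of all genes), 16 in Ca2+-Sen (63.1%) and 17 in DDR-Sen (47.8%), and the Ca2+-Sen count was also 16 without day 8, when 56.5% of all genes were called. On day 0 of PMD-Sen, 4 members were higher and 8 lower, when 19.0% and 19.3% of all genes were. On day 0 of Ca2+-Sen 8 were higher and 5 lower (23.0% and 25.5% of all genes), and on day 0 of DDR-Sen 7 and 5 (12.5% and 14.2%). By day 16 the calls were 3 higher and 1 lower in PMD-Sen (9.26% and 11.0%), 4 and 1 in Ca2+-Sen (5.47% and 5.82%) and 7 and 2 in DDR-Sen (12.7% and 16.0%), and in RS 5 and 2 (11.2% and 11.0%). The median log2 fold change of the tested members was -0.23, 0.16 and 0.26 on day 0 of PMD-Sen, Ca2+-Sen and DDR-Sen, when that of all tested genes was -0.01, -0.03 and 0.00, and 0.33, 0.15 and 0.32 on day 16, when it was 0.01, 0.00 and -0.01. TNFRSF14 is among the 19 only through its treated groups, with an untreated level of 1.83, and the other 18 were at or above 10 in untreated cells.

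TNFSF18 (GITR ligand), a costimulatory ligand for T cells, had the largest called increases of days 8 and 16 and of RS. It lies on chromosome 1 (GRCh38, 173039960 to 173050963, minus strand), 133 kb from TNFSF4, and stood at 44.2 normalized counts in untreated cells. In PMD-Sen its levels were 140.0, 15.7, 13.9, 20.4, 39.6, 110.3, 180.2 and 653 on the 8 days in turn, in Ca2+-Sen 136, 52.0, 35.6, 33.2, 47.5, 175, 528 and 133, and in DDR-Sen 35.1, 70.7, 55.1, 62.7, 96.1, 161, 301 and 1016. In RS it reached 1847. Both PMD-Sen and Ca2+-Sen thus had a first increase on day 0 that was gone on day 1 and a second after day 4, whereas DDR-Sen had no called change before day 4. On day 16 TNFSF18 was 22.9-fold higher in DDR-Sen (log2 fold change 4.52, SE 0.27, BH-adjusted p = 1.71e-59) and 14.7-fold higher in PMD-Sen (log2 fold change 3.88, SE 0.32, BH-adjusted p = 2.18e-30). In RS it was 41.8-fold higher (log2 fold change 5.38, SE 1.05, BH-adjusted p = 5.94e-06), with a standard error well above those of day 16. Ca2+-Sen peaked on day 8, the day that stands apart (log2 fold change 3.58, SE 0.28), and was 3.02-fold higher on day 16 (log2 fold change 1.59, SE 0.41, BH-adjusted p = 0.00193). TNFSF18 was called higher in 12 comparisons and lower in 0.

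**Figure D2:**
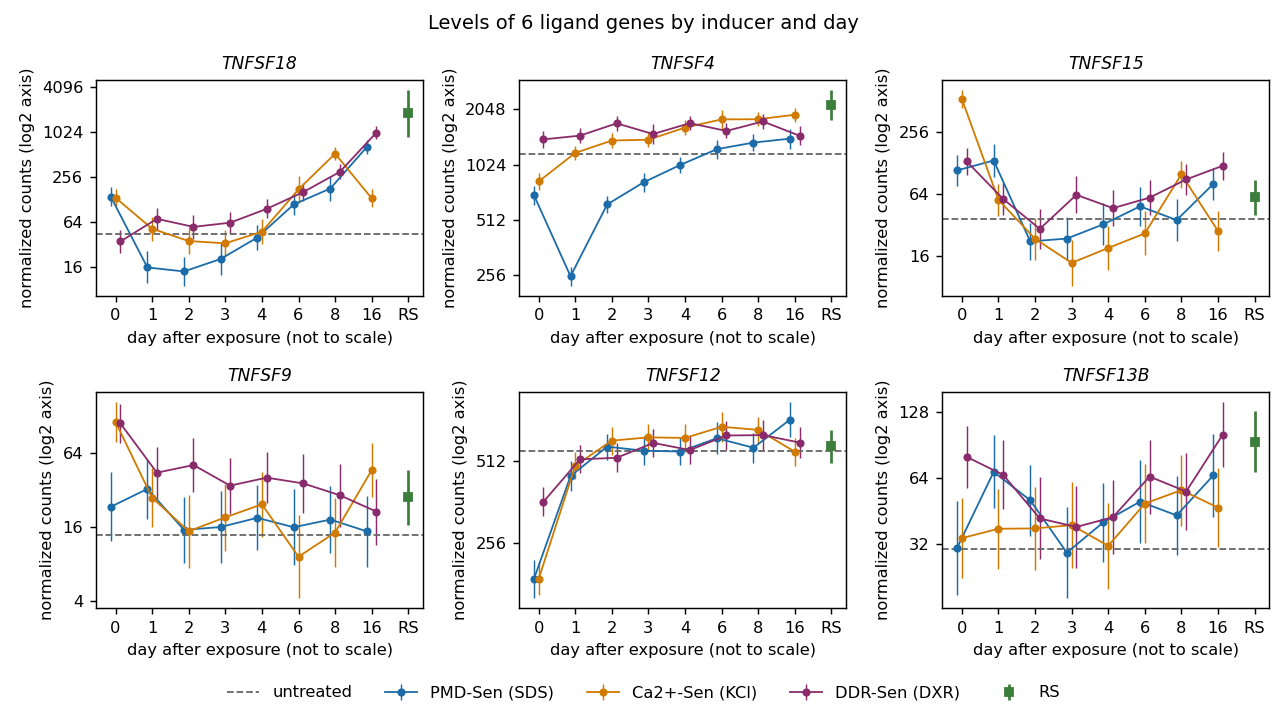
Normalized count (log axis) of the ligands by day for the 3 inducers, with the untreated level as a dashed line and RS as a square; points are group means of 2 libraries and bars are 1 SE of the log2 fold change. TNFSF18 climbs to 653 in PMD-Sen and 1016 in DDR-Sen on day 16, while the highest point of TNFSF15 is that of day 0 of Ca2+-Sen. TNFSF9 is highest on day 0 of Ca2+-Sen and of DDR-Sen, at close levels.

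TNFSF4 (OX40 ligand), another T-cell costimulator and the neighbour of TNFSF18 (GRCh38, chromosome 1, 173183734 to 173207313, minus strand), moved in opposite directions between series. From 1172 in untreated cells it stood in PMD-Sen at 698, 253, 621, 820.2, 1018, 1241, 1347 and 1416 on the 8 days in turn. It was lower there on days 0 to 3, most on day 1, when it was 4.63-fold lower (log2 fold change -2.21, SE 0.17, BH-adjusted p = 1.29e-34), and was not called from day 4 on. In Ca2+-Sen the levels were 829, 1184, 1383, 1397, 1626, 1802, 1806 and 1909, and in DDR-Sen 1403, 1470.2, 1715, 1499.7, 1719, 1559, 1756 and 1468. Ca2+-Sen was lower on day 0 (log2 fold change -0.50, SE 0.15) and higher from day 4 to day 16 (log2 fold change 0.70, SE 0.12 on day 16), and DDR-Sen was higher on days 2, 4, 6 and 8. In RS the level was 2169.7 (log2 fold change 0.89, SE 0.27, BH-adjusted p = 0.00732).

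TNFSF15 (TL1A, chromosome 9, 114784635 to 114806126, minus strand), which signals through TNFRSF25, and TNFSF9 (4-1BB ligand, chromosome 19, 6530999 to 6535928, plus strand), a costimulator, had their highest levels on day 0 of Ca2+-Sen. TNFSF15 rose from 37.0 to 534 on day 0 of Ca2+-Sen, a 14.5-fold increase (log2 fold change 3.86, SE 0.30, BH-adjusted p = 1.09e-35), and was back at 56.6 on day 1. It also rose on day 0 of PMD-Sen to 109, on day 1 to 136, and on day 0 of DDR-Sen to 133, and again to 99.6 on day 8 of Ca2+-Sen and 121 on day 16 of DDR-Sen. These were the 6 comparisons in which it was called, all higher. TNFSF9, outside the rule for named members and chosen after its values were seen, rose from 13.9 to 114 on day 0 of Ca2+-Sen (log2 fold change 3.05, SE 0.54, BH-adjusted p = 8.56e-08) and to 111 on day 0 of DDR-Sen (log2 fold change 3.01, SE 0.53, BH-adjusted p = 2.05e-07). On day 0 of PMD-Sen it was 23.4 and not called. The day 0 levels of TNFSF9 in Ca2+-Sen and DDR-Sen were not called different (0.04 on the log2 scale, with an SE of 0.75). TNFRSF9, the TNFSF9 receptor, had its highest level on day 0 of Ca2+-Sen. TNFRSF25, the TNFSF15 receptor, lay between 86.5 and 166 over all groups with 0 calls. At an unadjusted Wald p under 0.05, TNFRSF25 passed in 3 of the 25 comparisons.

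TNFSF12 (TWEAK, chromosome 17, 7548891 to 7557890, plus strand), the ligand of TNFRSF12A, was called lower on day 0 in every series and was not called in any other comparison. From 559 it stood at 189 on day 0 of PMD-Sen (log2 fold change -1.56, SE 0.23, BH-adjusted p = 2.7e-10), at 189.6 in Ca2+-Sen (log2 fold change -1.56, SE 0.20, BH-adjusted p = 7.3e-14) and at 364 in DDR-Sen (log2 fold change -0.62, SE 0.18, BH-adjusted p = 0.00284). All later levels lay between 452 and 728. Its locus overlaps that of the readthrough gene TNFSF12-TNFSF13, which had a level of at most 4.87. TNFSF13B (BAFF, chromosome 13, 108251240 to 108308484, plus strand), a survival factor for B cells, rose from 30.5 to 79.8 on day 0 and 101 on day 16 of DDR-Sen (log2 fold change 1.72, SE 0.50, BH-adjusted p = 0.00297), and to 93.7 in RS (log2 fold change 1.62, SE 0.46, BH-adjusted p = 0.00349). TNFSF13 (APRIL), chosen after its values were seen, was called once, at 72.1 on day 0 of Ca2+-Sen against 26.3 (log2 fold change 1.45, SE 0.51, BH-adjusted p = 0.0116).

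The 4 receptors of TRAIL lie within 205.0 kb on chromosome 8, and TNFRSF10A and TNFRSF10B carry a death domain while TNFRSF10C and TNFRSF10D are decoys that lack a working one. TNFRSF10B (DR5) rose on day 0 in all 3 series, from 6387 to 15573 in PMD-Sen (log2 fold change 1.29, SE 0.09, BH-adjusted p = 1.76e-40), 10436 in Ca2+-Sen (log2 fold change 0.71, SE 0.08) and 15329 in DDR-Sen (log2 fold change 1.26, SE 0.12, BH-adjusted p = 1.25e-25). It was lower than untreated on day 1 of PMD-Sen, at 5009, and its later levels lay between 5626 and 8157 in the other comparisons. The DR5 increase was thus confined to day 0 at this size, with later called changes of at most 0.35 on the log2 scale. TNFRSF10A (DR4), chosen after its values were seen, rose from 199 to 936 on day 0 of DDR-Sen (log2 fold change 2.23, SE 0.22, BH-adjusted p = 1.94e-22) and to 377 on day 0 of Ca2+-Sen (log2 fold change 0.92, SE 0.22, BH-adjusted p = 9.46e-05), and was 171 on day 0 of PMD-Sen, where it was not called.

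The decoy TNFRSF10C (DcR1) had its highest levels after doxorubicin. From 132 it stood in DDR-Sen at 1533, 407, 378, 288, 338, 336, 355 and 289 on the 8 days in turn, and it was called higher on all 8 days. On day 0 it was 11.6-fold higher (log2 fold change 3.53, SE 0.19, BH-adjusted p = 3.25e-78), and on day 16 2.18-fold higher (log2 fold change 1.13, SE 0.28, BH-adjusted p = 0.000485). In Ca2+-Sen it rose on day 0 to 325 (log2 fold change 1.30, SE 0.24) and was not called later. In PMD-Sen it was 68.0 on day 0 (log2 fold change -0.96, SE 0.40, BH-adjusted p = 0.0431), a call that was lost when levels were scaled by library totals, and higher on days 4 and 8, at 245 and 266. In RS, at 157, it was not called.

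The decoy TNFRSF10D (DcR2), a gene long used as a marker of senescent cells, was called in more comparisons than any other member, higher in 19 and lower in 0. From 5144 its levels in PMD-Sen were 7597, 9807, 8478, 9314, 10649, 11894, 9348 and 5762 on the 8 days in turn. In Ca2+-Sen they were 10802, 4695, 6066, 8637, 7779, 7181, 4784 and 6707, and in DDR-Sen 8178, 8043, 8200.1, 8621, 8309, 11613, 9704 and 9711. PMD-Sen thus peaked on day 6 and was no longer called on days 8 and 16, while DDR-Sen was called on all 8 days. The increase was 2.31-fold on day 6 of PMD-Sen (log2 fold change 1.21, SE 0.15, BH-adjusted p = 6.4e-14), 2.26-fold on day 6 of DDR-Sen (log2 fold change 1.17, SE 0.11, BH-adjusted p = 3.76e-24) and 2.10-fold on day 0 of Ca2+-Sen (log2 fold change 1.07, SE 0.11, BH-adjusted p = 4.62e-20). In RS it stood at 11939 (log2 fold change 1.21, SE 0.22, BH-adjusted p = 1.47e-06), the highest of all groups. The standard error reached 0.43 on day 8 of PMD-Sen and 0.38 on day 6 of Ca2+-Sen, against 0.11 to 0.25 in the other comparisons.

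**Figure D3:**
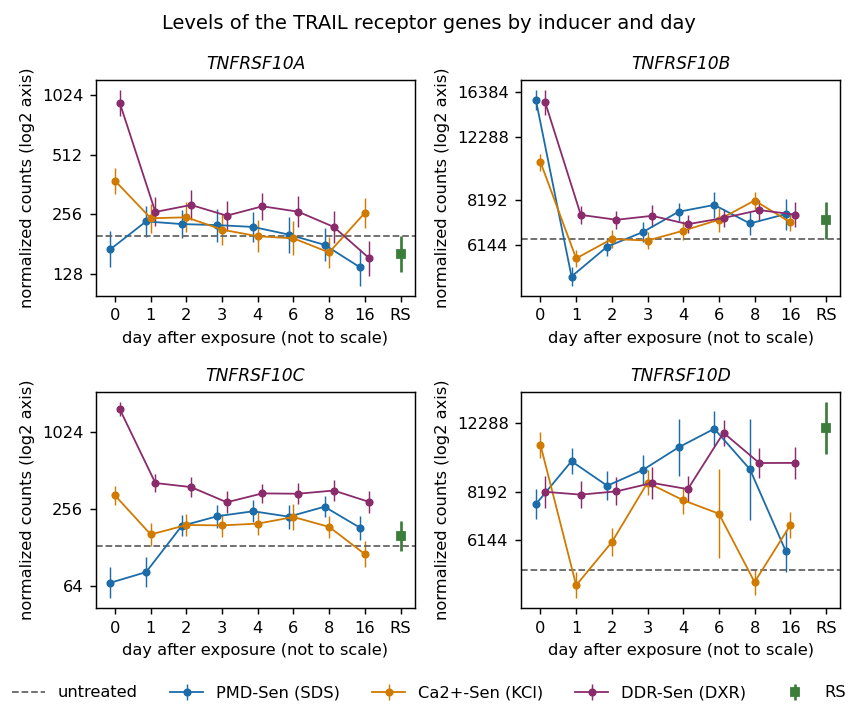
Normalized count (log axis) of TNFRSF10A, TNFRSF10B, TNFRSF10C and TNFRSF10D by day for the 3 inducers, with the untreated level as a dashed line and RS as a square; points are group means of 2 libraries and bars are 1 SE of the log2 fold change. TNFRSF10B peaks on day 0 in all 3 series, and TNFRSF10C falls from 1533 on day 0 of DDR-Sen to between 288 and 407 on later days, above its untreated 132.

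TNFRSF11B (osteoprotegerin), a secreted decoy for RANK ligand and TRAIL, fell early in PMD-Sen and was near its untreated level by day 16. From 20170.4 it was 4633, 8273, 9235, 10108, 11096, 16259.5, 15795 and 19980.4 in PMD-Sen on the 8 days in turn. It was 4.35-fold lower on day 0 (log2 fold change -2.12, SE 0.33, BH-adjusted p = 1.31e-09), was called lower through day 4, and on day 16 differed from untreated cells by -0.01 on the log2 scale (SE 0.15). In DDR-Sen it was 11352 on day 0 (log2 fold change -0.83, SE 0.13, BH-adjusted p = 7.82e-10) and also lower on days 1, 2 and 4, of which the calls on days 2 and 4 were lost with library totals. In Ca2+-Sen it was 16059 on day 0 (log2 fold change -0.33, SE 0.10) and higher on days 8 and 16, at 25072 and 26150.3 (log2 fold change 0.37, SE 0.09, BH-adjusted p = 0.000332). In RS it was 25281 and not called.

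The 2 receptors of TNF behaved differently, with a broad decrease of TNFRSF1B (TNFR2, chromosome 1, 12167003 to 12209228, plus strand) and small changes of TNFRSF1A (TNFR1, chromosome 12, 6328757 to 6342114, minus strand). TNFRSF1B stood at 779 in untreated cells and at 479, 504, 421, 478, 418, 391, 424 and 350.0 in DDR-Sen on the 8 days in turn, where it was called lower on all 8 days. The decrease on day 16 was 2.23-fold (log2 fold change -1.15, SE 0.19, BH-adjusted p = 3.84e-08). In PMD-Sen it fell to 223 on day 0 (log2 fold change -1.80, SE 0.21, BH-adjusted p = 5.07e-16), was 961 on day 1, and was not called after day 0. In Ca2+-Sen it fell to 401 on day 0 (log2 fold change -0.96, SE 0.16, BH-adjusted p = 2.49e-08) and was lower on day 3, at 554, and in RS it was 464 (log2 fold change -0.75, SE 0.20, BH-adjusted p = 0.00159). TNFRSF1A, the death-domain receptor that most cells carry, was outside the rule for named members and was described after its values were seen. It lay between 5176 and 8984 over all groups, against 6819 in untreated cells, and was called lower in 7 comparisons and higher in 3, with no log2 fold change over 0.40 in size. The 3 higher calls were day 16 of PMD-Sen (8984), day 8 of Ca2+-Sen (8847) and day 16 of DDR-Sen (8324).

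TNFRSF12A (Fn14, chromosome 16, 3018445 to 3022383, plus strand), the TWEAK receptor and a gene of growth-factor-stimulated fibroblasts, was called lower in 14 comparisons and higher in 0, among them days 8 and 16 of all 3 series and day 0 of DDR-Sen. From 6045 it stood in PMD-Sen at 5959, 6871, 5878, 4735, 4079, 4791, 3827 and 2990.3 on the 8 days in turn. In Ca2+-Sen the levels were 5488, 6764, 4983, 5378, 4409.6, 3838, 2306 and 4607, and in DDR-Sen 4750.1, 6019, 5833, 4516, 4064, 4117, 3610.1 and 3364. On day 16 it was 2.02-fold lower in PMD-Sen (log2 fold change -1.02, SE 0.16, BH-adjusted p = 7.08e-09), 1.80-fold lower in DDR-Sen (log2 fold change -0.85, SE 0.15, BH-adjusted p = 9.76e-08) and 1.31-fold lower in Ca2+-Sen (log2 fold change -0.39, SE 0.10, BH-adjusted p = 0.00148). The lowest level was that of day 8 of Ca2+-Sen (log2 fold change -1.39, SE 0.10), and in RS it was 4689, which was not called.

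TNFRSF21 (DR6, chromosome 6, 47231532 to 47309905, minus strand), a death-domain receptor best known from neurons and T cells, fell on day 0 after SDS and KCl, and on days 3 and 4 after KCl. It was called higher on day 16 of PMD-Sen, on day 8 of Ca2+-Sen, on days 6, 8 and 16 of DDR-Sen and in RS. From 2452 it stood on day 0 at 987 in PMD-Sen (log2 fold change -1.31, SE 0.16, BH-adjusted p = 1.64e-14), 1074 in Ca2+-Sen (log2 fold change -1.19, SE 0.14, BH-adjusted p = 1.32e-15) and 2935 in DDR-Sen, where it was not called. On day 16 it was 3802 in PMD-Sen (log2 fold change 0.63, SE 0.19) and 4282 in DDR-Sen (log2 fold change 0.80, SE 0.15, BH-adjusted p = 1.58e-06), and in RS 3633 (log2 fold change 0.57, SE 0.21, BH-adjusted p = 0.0334). Ca2+-Sen reached 4065 on day 8 and was 2304 on day 16, when it was not called.

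TNFRSF19 (TROY, chromosome 13, 23570370 to 23676104, plus strand), an orphan-type receptor of the nervous system and stem cell compartments, was called lower in 10 comparisons and higher in 1. From 2062 its levels were 646, 1377, 959, 1543, 1981, 1511, 2073 and 3691 in PMD-Sen on the 8 days in turn, 1702, 1157, 2011, 1236, 1773, 1867, 4981 and 2311 in Ca2+-Sen and 1484, 990.2, 1129, 2239, 1698, 1305, 1757 and 1956 in DDR-Sen. It was 3.19-fold lower on day 0 of PMD-Sen (log2 fold change -1.67, SE 0.18, BH-adjusted p = 1.02e-19) and 1.85-fold lower in RS (log2 fold change -0.88, SE 0.27, BH-adjusted p = 0.00749), and the higher call was day 8 of Ca2+-Sen (log2 fold change 1.27, SE 0.13, BH-adjusted p = 3.7e-20). The standard error rose to 0.63 on day 6 of Ca2+-Sen and 0.57 and 0.53 on days 8 and 16 of PMD-Sen, where group levels are correspondingly uncertain. TNFRSF14 (HVEM), also chosen after its values were seen, had levels from 0.619 to 79.7 with standard errors of at least 1.23, and was called once, on day 2 of DDR-Sen at 48.3.

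**Figure D4:**
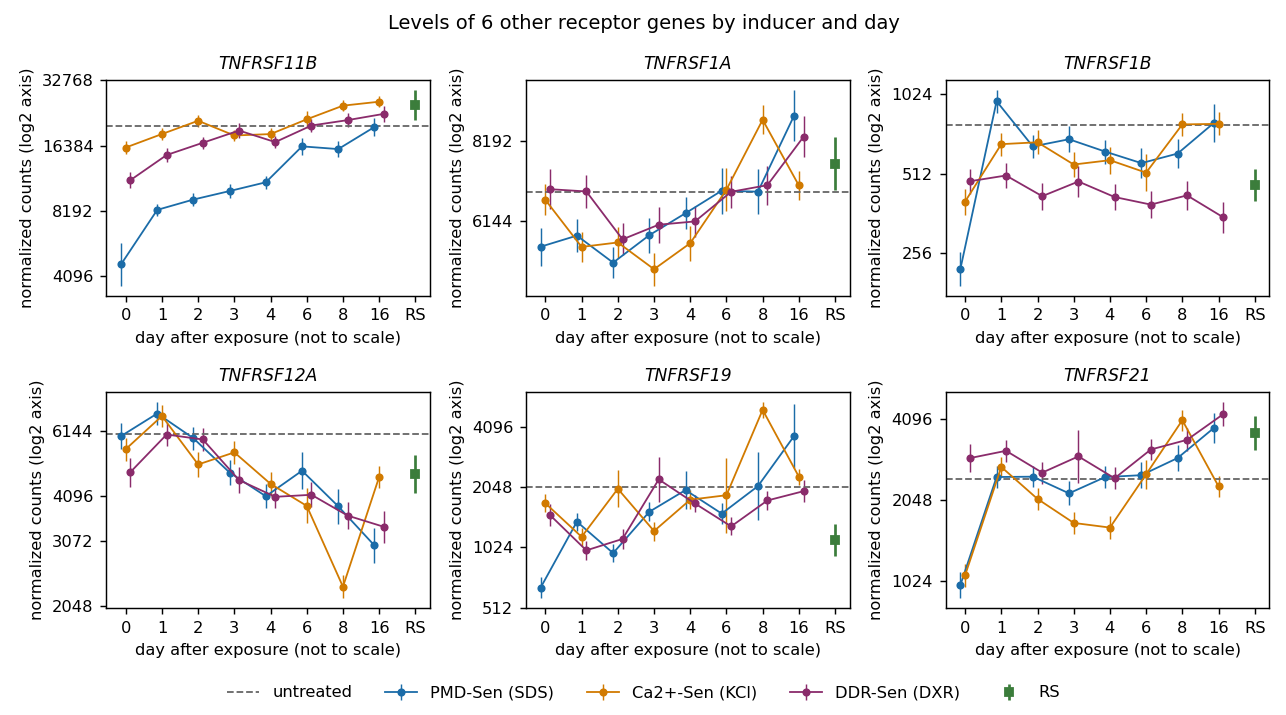
Normalized count (log axis) of TNFRSF1A, TNFRSF1B, TNFRSF11B, TNFRSF12A, TNFRSF19 and TNFRSF21 by day for the 3 inducers, with the untreated level as a dashed line and RS as a square; points are group means of 2 libraries and bars are 1 SE of the log2 fold change. TNFRSF11B climbs from 4633 on day 0 to 19980.4 on day 16 of PMD-Sen, and TNFRSF1B stays at or below 504 on all days of DDR-Sen against 779 in untreated cells.

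To ask whether the inducers differed from each other, log2 fold changes were subtracted and tested on each day for the 3 pairs, 24 comparisons in all, with a two-sided normal p adjusted by Benjamini-Hochberg over the 15479 genes. The untreated libraries enter both sides of each difference, so the summed error counts them more than once and the test makes too few calls. The shared part was estimated with a count model and inferred library depths, so counts with it subtracted are approximate. Shares of all genes are given only for the adjusted test with summed errors. The other counts are therefore not set against other genes. Between PMD-Sen and Ca2+-Sen, 8, 3, 2, 1, 1, 0, 2 and 2 members differed on the 8 days in turn, when 36.9%, 4.13%, 2.26%, 0.142%, 0.142%, 0.0129%, 3.11% and 2.60% of all tested genes did. For PMD-Sen and DDR-Sen the counts were 9, 5, 2, 2, 2, 0, 0 and 0, with 27.4%, 11.7%, 6.91%, 1.74%, 0.724%, 0.594%, 0.782% and 0.187% of all genes. Those for Ca2+-Sen and DDR-Sen were 9, 3, 0, 0, 0, 0, 4 and 5, with 35.5%, 7.32%, 3.08%, 1.47%, 1.10%, 0.633%, 4.65% and 6.06%. The counts were highest on day 0, and on day 6 no member differed in any pair. At an unadjusted p under 0.05, 2, 1 and 0 members differed on day 6 for PMD-Sen with Ca2+-Sen, PMD-Sen with DDR-Sen and Ca2+-Sen with DDR-Sen, and 0 in each pair by the adjusted test with the shared untreated error subtracted. For Ca2+-Sen and DDR-Sen on days 2, 3 and 4, where no member was called, 5, 3 and 3 passed at the unadjusted p and 5, 1 and 1 with the shared error subtracted.

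TNFRSF10C gave the widest called difference between series on day 0. PMD-Sen minus DDR-Sen was -4.50 on the log2 scale, with an SE of 0.44 and a 95% interval of -5.36 to -3.63 (BH-adjusted p = 2.1e-22), at levels of 68.0 and 1533. Ca2+-Sen minus DDR-Sen was -2.24 on the log2 scale, with an SE of 0.31 and a 95% interval of -2.84 to -1.63 (BH-adjusted p = 9.06e-12). The 3 series were thus in the order DDR-Sen, Ca2+-Sen and PMD-Sen for this decoy, each neighbour differing. TNFRSF10A had the same order, with Ca2+-Sen minus DDR-Sen at -1.31 on the log2 scale, with an SE of 0.31 and a 95% interval of -1.92 to -0.70 (BH-adjusted p = 0.000149). For TNFRSF10B, PMD-Sen and DDR-Sen were not called different on day 0 (0.02 on the log2 scale, with an SE of 0.15 and a 95% interval of -0.27 to 0.32), and both lay above Ca2+-Sen.

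TNFSF15 was higher on day 0 of Ca2+-Sen than of DDR-Sen by 2.01 on the log2 scale, with an SE of 0.53 and a 95% interval of 0.98 to 3.05 (BH-adjusted p = 0.000745), and higher than in PMD-Sen as well. TNFRSF21 was lower in Ca2+-Sen than in DDR-Sen on day 0, at a difference of -1.45 on the log2 scale, with an SE of 0.22 and a 95% interval of -1.89 to -1.01. On days 2, 3 and 4, TNFRSF11B and TNFSF4 made up all calls between PMD-Sen and another series. TNFSF4 was not called against Ca2+-Sen on days 3 and 4. On day 1, TNFRSF10D also differed between PMD-Sen and Ca2+-Sen, and TNFRSF10B, TNFRSF10C and TNFRSF1B between PMD-Sen and DDR-Sen. With the shared untreated error subtracted, members other than TNFRSF11B and TNFSF4 passed on days 2 and 4. Against DDR-Sen on day 2, 6 members then differed, TNFRSF10C, TNFRSF1B and TNFSF18 among them. For TNFSF4 on day 1, PMD-Sen minus DDR-Sen was -2.54 on the log2 scale, with an SE of 0.22 and a 95% interval of -2.97 to -2.10 (BH-adjusted p = 6.17e-28). For TNFRSF11B on day 1, PMD-Sen minus Ca2+-Sen was -1.16 on the log2 scale, with an SE of 0.13 and a 95% interval of -1.42 to -0.91 (BH-adjusted p = 3.24e-16).

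On day 16, TNFSF18 separated Ca2+-Sen from the other series, with Ca2+-Sen minus DDR-Sen at -2.93 on the log2 scale, with an SE of 0.49 and a 95% interval of -3.89 to -1.96 (BH-adjusted p = 3e-07). PMD-Sen and DDR-Sen had 0 members called different on days 8 and 16 (2 and 2 at an unadjusted normal p under 0.05, 1 and 2 with the shared error subtracted). For TNFSF18 on day 16 their difference was -0.64 on the log2 scale, with an SE of 0.42 and a 95% interval of -1.46 to 0.19. TNFRSF1B was higher on day 16 of Ca2+-Sen than of DDR-Sen, by 1.17 on the log2 scale, with an SE of 0.24 and a 95% interval of 0.70 to 1.65 (BH-adjusted p = 6.9e-05), and TNFRSF21 was lower (-0.89 on the log2 scale, with an SE of 0.20 and a 95% interval of -1.29 to -0.50).

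**Figure D5:**
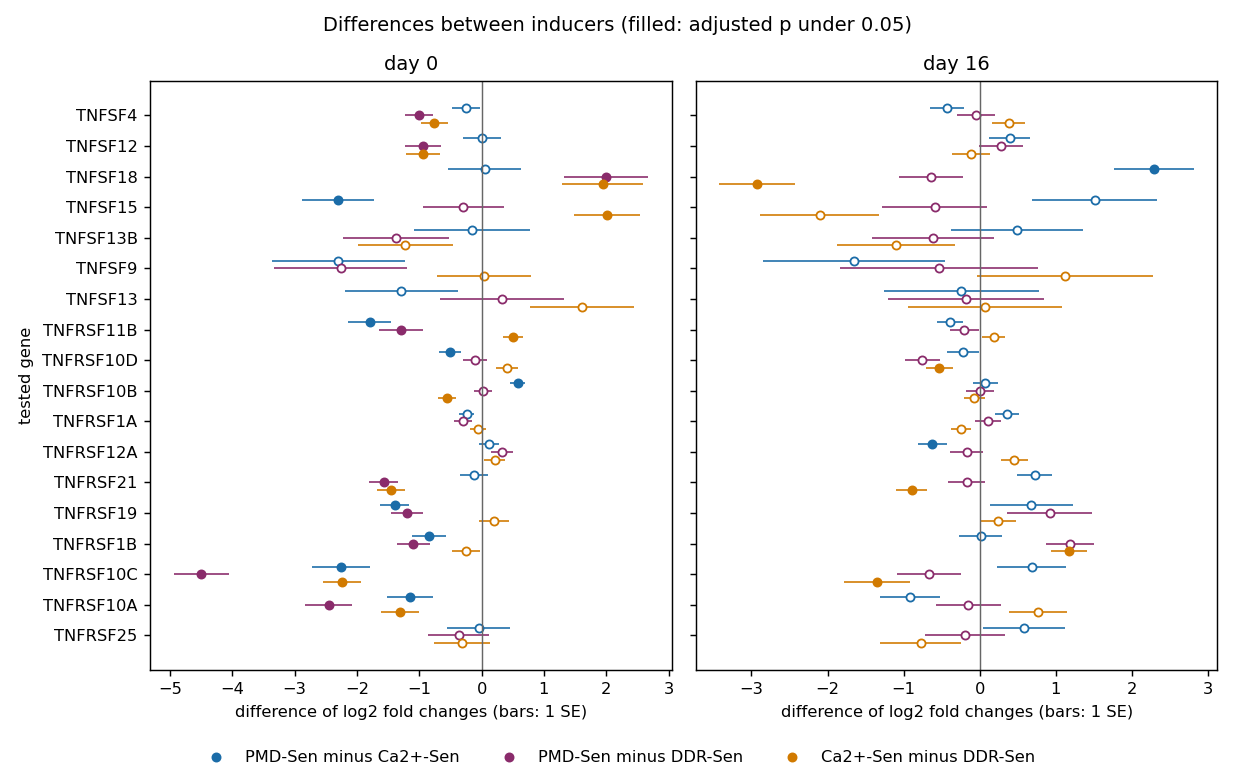
Difference of log2 fold changes between pairs of inducers (horizontal axis) for 18 tested members on days 0 and 16, with bars of 1 SE and filled points for a BH-adjusted normal p under 0.05; TNFRSF14 is left out for its high standard errors. On day 0, TNFRSF10C lies furthest to the left at -4.50 for PMD-Sen minus DDR-Sen, and on day 16 TNFSF18 does at -2.93 for Ca2+-Sen minus DDR-Sen.

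Day 16 of each series was set against RS in the same way, and 1 member differed for PMD-Sen (0.659% of all genes), 4 for Ca2+-Sen (4.06%) and 0 for DDR-Sen (0.142%). TNFRSF10D was lower than in RS on day 16 of PMD-Sen, at a difference of -1.05 on the log2 scale, with an SE of 0.29 and a 95% interval of -1.62 to -0.49 (BH-adjusted p = 0.0461), a call that was lost with library totals. In Ca2+-Sen, TNFSF18 (-3.79 on the log2 scale, with an SE of 1.13 and a 95% interval of -6.01 to -1.58) and TNFRSF10D were lower than in RS, and TNFRSF19 and TNFRSF1B were higher. At an unadjusted normal p under 0.05, 2 members differed between day 16 of DDR-Sen and RS, and 0 by the adjusted test with the shared untreated error subtracted.

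A list of 36 other genes of the family and its signalling was read the same way, of which 26 were tested. None of its 6 other ligands was tested, and 5 of its 8 other receptors were. LTA and LTB, among these ligands, lie in the chromosome 6 stretch around TNF, with highest levels of 0 and 0.29. As for TNF, these are not read as levels. Of the tested genes 12 (5 higher, 7 lower), 11 (5 and 6) and 11 (5 and 6) were called on day 0 of PMD-Sen, Ca2+-Sen and DDR-Sen, 3, 3 and 10 on day 16, and 4 in RS, beside the shares of all genes given above. Their median log2 fold change was -0.08, -0.07 and 0.00 on day 0 of the 3 series, against -0.01, -0.03 and 0.00 for all tested genes. Over any day, 16, 17 and 18 of the 26 were called, when 55.1%, 63.1% and 47.8% of all tested genes were. The Ca2+-Sen count was 16 without day 8, when 56.5% of all tested genes were called.

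The inhibitor of apoptosis BIRC3, a target of NF-kB, was lower in 20 comparisons and higher in 0, and went from 387 to 159, 96.5 and 117 on day 0 of PMD-Sen, Ca2+-Sen and DDR-Sen and to 80.0 on day 16 of DDR-Sen (log2 fold change -2.27, SE 0.28). TNFAIP3 (A20), which ends NF-kB signalling and is induced by it, was lower in 16 comparisons, as on day 6 of DDR-Sen, at 135 against 341 (log2 fold change -1.33, SE 0.26). MAP3K14 (NIK), the kinase of the noncanonical NF-kB pathway, was lower in 15, most on day 0 of PMD-Sen, at 97.7 against 427 (log2 fold change -2.13, SE 0.30). None of these 3 genes was called higher in any comparison. The tallies in this paragraph all rest on the same untreated libraries and are not independent. The deubiquitinase CYLD, a brake on NF-kB signalling, was higher in 18 comparisons, reaching 4026 on day 0 of PMD-Sen against 1866 (log2 fold change 1.11, SE 0.14). EDA2R (XEDAR), a family receptor under another symbol, was higher in 17, including all 8 days of DDR-Sen, at 759.6 on day 0 and 655 on day 16 against 305 (log2 fold change 1.31, SE 0.18 on day 0). BIRC2, a relative of BIRC3, was higher in 3 comparisons and lower in 11, at 6128 on day 1 and 2301 on day 16 of PMD-Sen against 4267. The next genes by number of calls are outside the rule for named genes and were added after their values were seen. TRAF5 was lower in 13 comparisons and higher in 0, FAS higher in 11 and lower in 1, and TRAF1 higher in 10 and lower in 2. The roles named here are background, were given for some genes only and are not a reading of the pathway. The activity of NF-kB was not tested.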

How the data were processed

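RNA of WI-38 cells was sequenced by the authors, and the submitters' processing notes name GRCh38 (hg38), Trim Galore, HISAT2, HTSeq, featureCounts and DESeq2 without versions. Each of the 52 deposited files holds 1 comparison of a treated or RS group with the untreated group, so both libraries of a group carry the same table, the untreated libraries carry that of RS, and 25 distinct tables remain. In each, the authors deposited a mean signal (counts divided by size factors, over the 4 libraries), a log2 fold change, the log2 standard error of that change, a Wald score (the fold change over its error), the two-sided p-value and its adjusted form. These columns are the authors' own comparisons, and since the tables hold nothing else, the mean, fold change, error and p-value were used, while the deposited adjusted p-values were not used. There were 0 other columns of per-sample values. A test on the values of single libraries, limma or a count model, could not be run on these units.

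Levels of the untreated and the treated group were derived from the mean and fold change, and put on 1 scale by the untreated level of 8645 genes above 200 in all tables (median SD of the untreated level over tables, 0.00043 on the log2 scale). Genes with a mean level of at least 10 over the 26 groups were tested (15479 of 59408), and the deposited Wald p-values were adjusted by Benjamini-Hochberg over these genes in each table, with a call under 0.05. Differences between tables used a normal p on the difference of log2 fold changes. Relative depth came from the steps of low values. Alternatives were no filter, a mean level of at least 100, library totals for scaling, a size of at least 1 on the log2 scale, subtraction of the shared untreated error and, added after seeing the data, leaving out day 8 of Ca2+-Sen. The steps were tested on simulated data. Annotation was GENCODE on GRCh38, and promoters came from RefSeq (GRCh38.p14), in which 22 of the 33 members matched. Members were named with values where they were called in at least 3 tables with a change of 1 or more on the log2 scale in 1 of them, up to 30, together with TNF and the 3 tested members of highest level, and of the list of other genes the 6 with the most calls were named. Members, lists and tests were chosen with earlier results of these data known. Figures were drawn with matplotlib 3.10.9, and Python 3.11.15 with pandas 2.3.3, SciPy 1.17.1 and NumPy 2.4.6 did the rest.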

Additional observations from a re-analysis of the deposited data

Results flagged for a closer look

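Members whose response differed between inducers were counted for each pair and day. On day 0, 8 members differed between PMD-Sen and Ca2+-Sen, 9 between PMD-Sen and DDR-Sen and 9 between Ca2+-Sen and DDR-Sen, of 19 tested, when 36.9%, 27.4% and 35.5% of all genes differed. On day 1 the counts in this order were 3, 5 and 3 (4.13%, 11.7% and 7.32% of all genes), and on day 2 they were 2 and 2 for the pairs with PMD-Sen (2.26% and 6.91%). On day 3 they were 1 and 2, and on day 4 again 1 and 2, for PMD-Sen with Ca2+-Sen (0.142% of all genes on each day) and with DDR-Sen (1.74% and 0.724%). On day 8, 2 members differed between PMD-Sen and Ca2+-Sen and 4 between Ca2+-Sen and DDR-Sen, when 3.11% and 4.65% of all genes did, and on day 16 these pairs gave 2 and 5 (2.60% and 6.06%). Against RS, 1 member differed on day 16 of PMD-Sen and 4 on day 16 of Ca2+-Sen (0.659% and 4.06% of all genes).

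Opposite called directions were found for TNFRSF10C on day 0, lower in PMD-Sen and higher elsewhere, with a difference of log2 fold changes of -2.26 between PMD-Sen and Ca2+-Sen and of -4.50 between PMD-Sen and DDR-Sen. The lower call in PMD-Sen was lost with library totals, at a log2 fold change of -0.93. On day 2, TNFSF4 was lower in PMD-Sen and higher in DDR-Sen, with a difference of -1.47.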

How the results depend on the processing

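With the untreated level shared by all tables and a single deposited error per gene, leaving out a replicate was not run, because the columns hold no value of a single library. No paired analysis was possible because the columns carry no replicate numbers. The cause of each move below was not tested unless the setting itself, a size limit that can only remove calls, gives it. Counts not listed below were not all unchanged. Shares of all tested genes at these settings are not given here, so the counts are not read as a result about the members.

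With a change of 1 or more on the log2 scale required, the members called were 3, 2, 0, 1 and 2 on days 1, 2, 3, 4 and 16 of PMD-Sen, 8, 0, 0, 0, 0, 1, 4 and 1 on the 8 days of Ca2+-Sen in turn, 6, 2, 2, 1, 2, 3, 2 and 5 on those of DDR-Sen, 3 in RS, and 10 and 11 over any day of Ca2+-Sen and DDR-Sen. Days 0, 6 and 8 and the any-day count of PMD-Sen are not in this list. Day 0 of PMD-Sen also lost calls under this size limit, such as those of TNFRSF10C and TNFRSF1A. At a mean level of at least 100, day 6 of PMD-Sen gave 3. Day 2 of Ca2+-Sen gave 0 with no filter and 0 with library totals.

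With a difference of at least 1 required, day 0 gave 5 for PMD-Sen with Ca2+-Sen and 5 for Ca2+-Sen with DDR-Sen, day 1 gave 2 for PMD-Sen with DDR-Sen and 1 for Ca2+-Sen with DDR-Sen, day 2 gave 1 for PMD-Sen with DDR-Sen, and days 3 and 4 gave 0 for both pairs with PMD-Sen. Day 8 then gave 0 for PMD-Sen with Ca2+-Sen and 2 for Ca2+-Sen with DDR-Sen, day 16 gave 1 and 3, and Ca2+-Sen with RS gave 2. With the shared untreated error subtracted, the counts for PMD-Sen with Ca2+-Sen, PMD-Sen with DDR-Sen and Ca2+-Sen with DDR-Sen were 5, 8 and 6 on day 1, 4, 6 and 5 on day 2, 6, 1 and 7 on day 8 and 6, 2 and 8 on day 16, those of PMD-Sen with Ca2+-Sen and Ca2+-Sen with DDR-Sen were 2 and 1 on day 3 and 3 and 1 on day 4, and PMD-Sen with RS gave 4. On day 0, subtracting the shared error gave 10, 13 and 13 for PMD-Sen with Ca2+-Sen, PMD-Sen with DDR-Sen and Ca2+-Sen with DDR-Sen. PMD-Sen with DDR-Sen on day 16 gave 1 at a mean level of at least 100, and PMD-Sen with RS gave 0 with library totals.

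For the list of other genes, a size of at least 1 left 6, 4 and 8 over any day, 5, 4 and 4 on day 0, 0 and 3 on day 16 of Ca2+-Sen and DDR-Sen and 2 in RS, and a mean level of at least 100 gave 5 on day 16 of PMD-Sen. Of 325 log2 fold changes of named members, library totals kept the direction and the call of 317, added 5 calls, lost 3 and reversed 0.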
